A study of Mus musculus with 4 samples.

Results

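Zinc finger transcription factors of the Zfp, Zscan and Zkscan groups made up 97 of the 5807 genes in the authors' deposited list of genes that differed between pleural cavity and bone marrow eosinophils. Members were all listed genes whose symbol starts with Zfp and a digit, with Zscan or with Zkscan. Eosinophils were sorted from wild-type mice, 6 to 8 weeks old and of a strain the labels do not give, that had received cells of the Lewis lung carcinoma line LLC into the pleural cavity 2 days earlier, which models malignant pleural effusion. Each tissue, bone marrow or lavage of the pleural space, gave 2 libraries, and the labels mark all 4 as WT and LLC, whereas the study's Results call the bone marrow cells naïve. Marrow cells were enriched with F4/80 beads and sorted as CD45+ SiglecF+ SSChi, while pleural cells were enriched with CD45 beads and sorted with CD11b and F4/80 added and with CD11c+ and Gr1 high cells left out. The tissue comparison is therefore also a comparison of 2 gates, and nothing in the labels says whether the libraries of a tissue came from separate mice.

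Most of these proteins bind DNA through tandem C2H2 fingers, short loops in which a pair of cysteines and a pair of histidines hold a zinc ion. Many mouse members also carry a KRAB box, which recruits the corepressor TRIM28 and, through it, histone methylation and heterochromatin proteins, a machinery best known for silencing transposable elements. The SCAN domain, found in Zscan and Zkscan proteins, lets family members pair with each other, and KRAB genes lie in clusters that arose by local duplication.

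All values below are the authors' mean reads, the average over the 2 libraries of a tissue of the reads that RSEM assigned to a gene. Values of single libraries are not in the table, so replicate spread is unknown and no difference was tested here. Because the table is already a selection of genes that passed the authors' own comparison, the gap around a ratio of 1 comes with that selection. Ratios are pleural cavity over bone marrow, on the log2 scale, after dividing each tissue by the total of its listed reads, which was 15947438 in the pleural cavity and 11762543 in bone marrow. Where a mean was at most 3 reads, 3 was used in its place and the ratio is a bound.

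The DNA stretches that code for the first finger of 7 members are shown because these members include close relatives with opposite ratios and members with high ratios. They were read from GENCODE vM21 transcripts of GRCm38, run 5′ to 3′ on the coding strand, and capitals mark the codons of the 2 cysteines and 2 histidines.
Zfp984: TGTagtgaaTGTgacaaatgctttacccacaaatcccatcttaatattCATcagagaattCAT
Zfp985: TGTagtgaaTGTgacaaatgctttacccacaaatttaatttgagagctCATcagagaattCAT
Zfp982: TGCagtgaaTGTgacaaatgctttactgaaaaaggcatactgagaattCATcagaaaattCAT
Zfp110: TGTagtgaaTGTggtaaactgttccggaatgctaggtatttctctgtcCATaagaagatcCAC
Zfp369: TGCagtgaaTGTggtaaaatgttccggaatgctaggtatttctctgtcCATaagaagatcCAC
Zfp14: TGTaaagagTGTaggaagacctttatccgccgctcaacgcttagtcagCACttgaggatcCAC
Zfp235: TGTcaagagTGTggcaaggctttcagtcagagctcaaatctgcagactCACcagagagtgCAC
Zfp984 differed from Zfp985 at 9 of the 63 bases and from Zfp982 at 13, and Zfp110 differed from Zfp369 at 2. By contrast Zfp14 and Zfp235, from separate clusters on chromosome 7, differed at 25 of 63.

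The family was split between the tissues. Of the 97 members, 54 had the higher level in pleural cavity eosinophils and 43 the lower. Thus 55.7% were higher, whereas 42.5% of all 5807 listed genes were higher. The paper counts far fewer of the 5807 genes as higher in the pleural cavity, at a cutoff of a change beyond 2-fold. Part of the genes called higher here thus lie on the lower side there, and which members these are was not examined. Every scaling used here gave a larger share of higher genes than the paper's count. Directions and sizes here are those of the present scaling, under which 1942 listed genes lay within 2-fold. Scaled by the median ratio of genes with at least 1000 reads in both tissues, 51 members were higher, or 51 of 97 beside 35.8% of all listed genes. At least 2-fold lower were 40 members, or 41.2%, beside 50.5% of all listed genes. At least 2-fold higher were 21, or 21.6%, beside 16.0% of all listed genes, and the other 36 lay within 2-fold. The count of 21 depended on the scaling, since it was 7 with the median ratio and 48 without scaling. The median log2 ratio was 0.51 over the members and -1.02 over all listed genes. These shares moved with the read level, because members with few reads were nearly all lower: of the 21 with under 100 reads summed over both tissues 19 were lower, as were 1155 of 1203 such genes in the whole list. With at least 100 summed reads, 52 of 76 members were higher, or 68.4%, against 52.6% of 4604 listed genes.

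**Figure D1:**
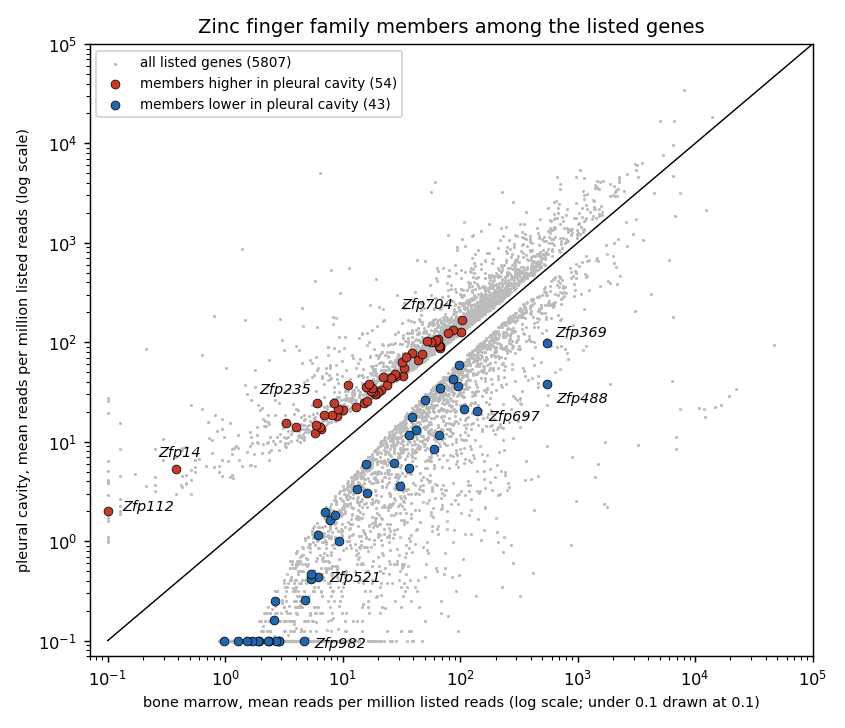
Mean reads in bone marrow (x axis) and pleural cavity eosinophils (y axis), per 1000000 reads of the listed genes and on log scales with values under 0.1 drawn at 0.1. Grey points are all 5807 listed genes, red points the 54 members with the higher level in the pleural cavity and blue points the 43 with the lower level, and the line marks equal levels. Zfp488 and Zfp369 stand apart at the right, and the red points keep close to the line while the blue points fan out below it.

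The 2 directions differed in size, as they did over the whole list. The 54 higher members had a median log2 ratio of 0.80 and ranged from 0.32 to 3.79, and 33 of them lay within 2-fold. The 43 lower members had a median of -2.76 and ranged from -0.74 to -4.64, and only Zfp106, Zfp277 and Zfp687 among them lay within 2-fold. Over all listed genes the medians were close to these, 0.78 for the 2468 higher and -2.61 for the 3339 lower genes. In the pleural cavity 13 members had at most 3 mean reads, 7 of them 0, which is 13 of 97 beside 17.9% of all listed genes. In bone marrow a single member, Zfp112, was at or under 3.

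**Figure D2:**
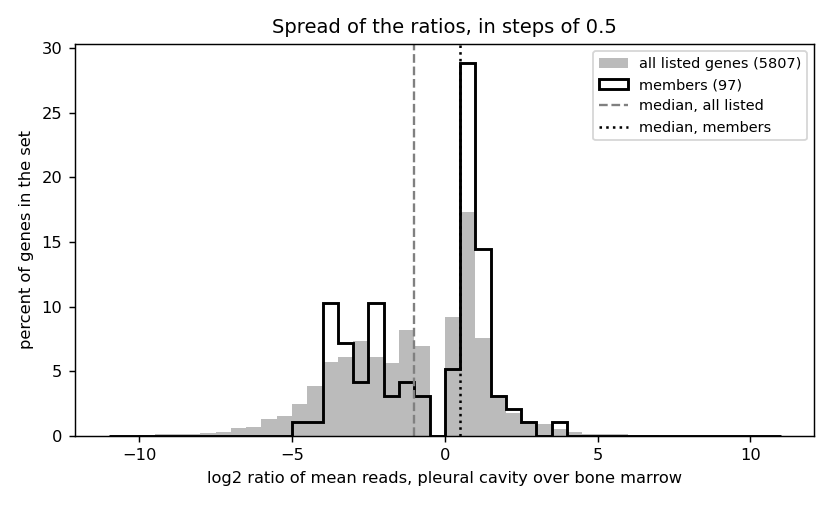
Share of genes (y axis, percent of the set) by log2 ratio of mean reads, pleural cavity over bone marrow (x axis, steps of 0.5), for all 5807 listed genes in grey and the 97 members as a black outline. The dashed line is the median of all listed genes, -1.02, and the dotted line that of the members, 0.51, and no member lies between -0.74 and 0.32.

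Bone marrow eosinophils had 2 members far above the rest. Zfp488, known from oligodendrocyte development, had 6489 mean reads in bone marrow and 613 in the pleural cavity, 14.3-fold lower. Zfp369, a relative of the neurotrophin receptor interacting factor, had 6395 and 1587, 5.46-fold lower. In RPKM (reads per kilobase of transcript and per 1000000 listed reads), Zfp369 stood at 187 and Zfp488 at 128 in bone marrow. The next member, Zfp971, was at 55.5, on a transcript model that holds the reading frame alone. Reads of Zfp369 and Zfp488 were fractional, that is, a mean of 2 whole counts could not give them. RSEM had thus divided some of their reads with other transcripts, and their levels are uncertain. No 100-base window of the Zfp369 transcript was found in another annotated gene, and 6.35% of those of Zfp488 were. Both genes decide the summed level of the family: all members came to 3880 of every 1000000 listed reads in bone marrow and 3271 in the pleural cavity, but without Zfp488 and Zfp369 to 2785 and 3133, the opposite order.

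The closest relative of Zfp369 went the other way. Zfp110, the gene of the neurotrophin receptor interacting factor itself, had 1589 mean reads in the pleural cavity and 724 in bone marrow, 1.62-fold higher, and its reads were not fractional. Over the 825 aligned residues of the proteins translated from GENCODE, Zfp110 and Zfp369 were 85.8% identical, and both hold 5 matched fingers and a KRAB box. They lie on different chromosomes, Zfp110 on chromosome 7 from 12834761 to 12850577 and Zfp369 on chromosome 13 from 65278814 to 65304221, both on the plus strand of GRCm38. Summed over the pair, most bone marrow reads belonged to Zfp369, while in the pleural cavity the mean reads were nearly equal, 1587 for Zfp369 and 1589 for Zfp110.

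In pleural cavity eosinophils the members with most mean reads were Zfp704 at 2670, Zfp710 at 2097 and Zfp276 at 2044. In bone marrow they had 1225, 1019 and 1204. The log2 ratios of Zfp704 and Zfp710 were 0.68 and 0.60, whereas that of Zfp276 was 0.32 and turned to -0.12 with median ratio scaling. Reads of Zfp704 and Zfp276 were fractional. Other members with many reads were higher by similar amounts, Zfp971 with 1959 against 922, Zfp120 with 1720 against 762.5, Zfp236 with 1673.5 against 728.5 and Zfp831 with 1647 against 617.5. Their log2 ratios, 0.65, 0.73, 0.76 and 0.98, all lay under 2-fold. Per length the order changed: Zfp971 stood first in the pleural cavity at 86.9, followed by Zfp869 at 48.0, Zfp369 at 34.2, Zfp984 at 33.3 and Zfp276 at 31.5 RPKM. All 5 had fractional reads, and 13.8% of the windows of Zfp971 were shared. The transcripts used for Zfp971 and Zfp869, of 1413 and 1590 bases, hold the reading frame alone. Untranslated bases missing from these models would raise their RPKM. This order is therefore uncertain. Which of these neighbours differ beyond replicate spread could not be told from means alone.

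Of the 8 highest ratios 6 belonged to KRAB members, beside 52 of all 96 members with a gene model. All 8 had modest read numbers. Zfp14, on chromosome 7 from 30036359 to 30051380 on the minus strand, had 84.5 mean reads in the pleural cavity and 4.5 in bone marrow, 13.9-fold higher but on few marrow reads. Zfp112 had 32 and 0, at least 7.87-fold higher against the floor of 3. Zfp951 followed with 247 against 38.7, 4.72-fold, on fractional reads. Zfp235 had 394 against 71.5 and Zfp90 had 587 against 130, so these KRAB genes were 4.06-fold and 3.33-fold higher on over 50 reads in each tissue and without fractional reads. The SCAN member Zscan20 had 222 against 46.8, 3.49-fold higher with fractional reads. Zfp395, which has 1 matched finger and neither domain pattern, had 392 against 100, and the KRAB gene Zfp560 had 293 against 82, 2.89-fold and 2.64-fold higher.

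**Figure D3:**
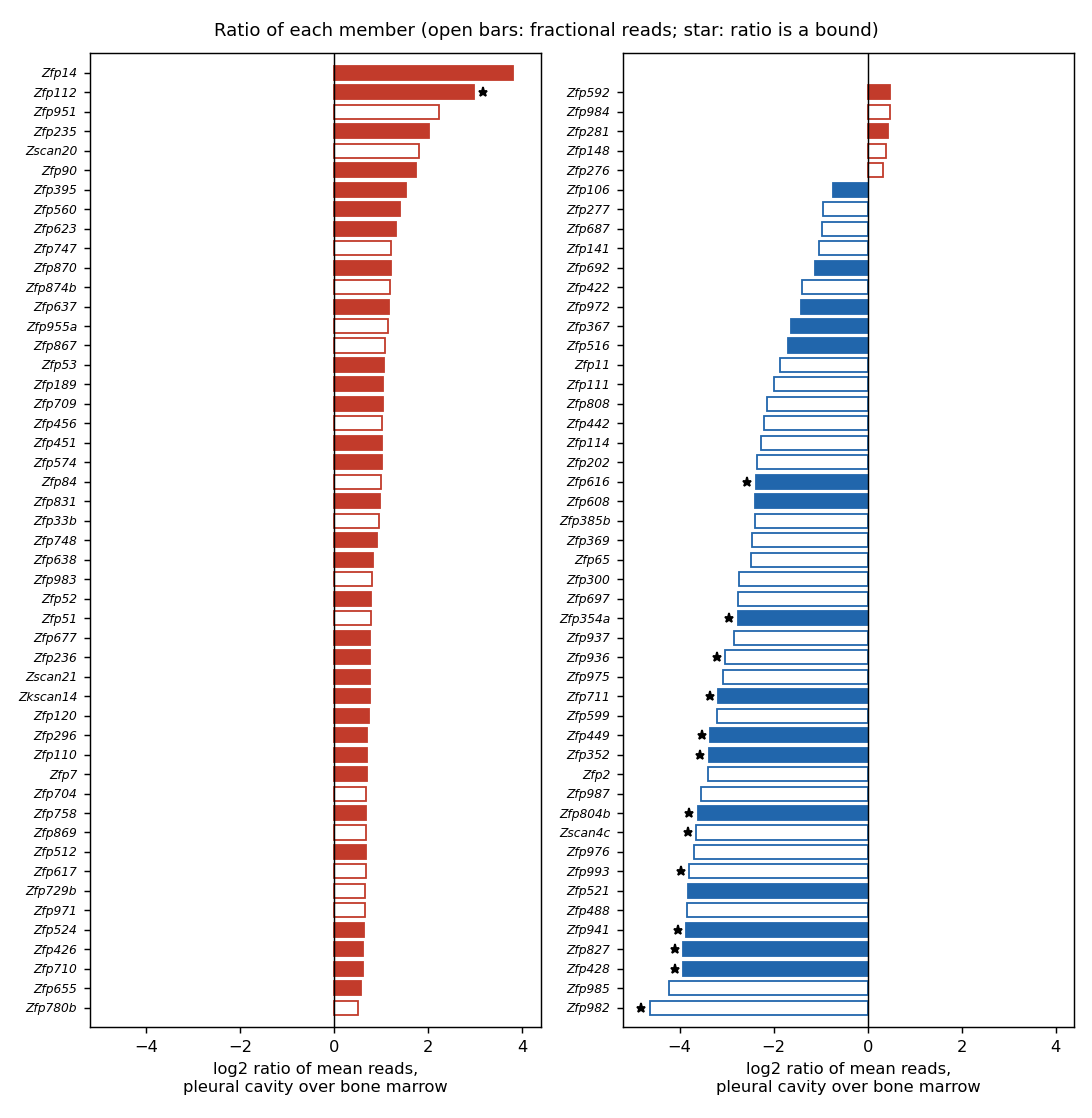
Log2 ratio of mean reads, pleural cavity over bone marrow (x axis), of each of the 97 members, from Zfp14 at 3.79 at the top left to Zfp982 at -4.64 at the bottom right. Red bars are higher and blue bars lower in the pleural cavity, open bars have fractional reads, and stars mark the 14 ratios that are bounds because a mean was at most 3 reads.

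Of the 8 lowest ratios 7 rested on at most 7 mean reads in the pleural cavity, the exception being Zfp488, described above. Zfp982 had 1.5 mean reads in the pleural cavity and 55.1 in bone marrow, at least 24.9-fold lower, and Zfp985 had 4.08 and 56.7, 18.8-fold lower, both on fractional reads. Zfp827, whose human counterpart is known to bring the NuRD complex to telomeres, and Zfp428 had the same means, 1.5 against 33.5, at least 15.1-fold lower. Zfp941 was at 0 against 32, at least 14.5-fold lower, and Zfp993 at 2.54 against 30.6, at least 13.8-fold lower. The Zfp993 value is uncertain, because 71.9% of its 100-base windows also occur in other genes. Zfp521, a cofactor of early blood and mesenchymal progenitors, had 7 against 72.5 reads, a log2 ratio of -3.81, with no fractional reads.

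The 7 members at 0 in the pleural cavity had at most 32 marrow reads, and besides Zfp941 the 3 with most reads were these. Zscan4c, which acts at telomeres in the early embryo and in embryonic stem cells, had 0 against 27.7 reads, but 72.8% of its windows are shared with the other Zscan4 copies. Zfp804b had 0 against 27, and Zfp352, also known from the early embryo, 0 against 23. Bounds for Zscan4c, Zfp804b and Zfp352 were at least 12.5-fold, 12.2-fold and 10.4-fold lower. All 8 members with under 30 summed reads were lower, as were 616 of 622 such genes in the whole list, so their direction is that of listed genes with few reads in general.

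Members with a role outside KRAB silencing went in both directions. Of 48 genes named on role lists for RNA and translation, SUMO, retroelement silencing, chromatin complexes, cell fate and autophagy, 11 were listed, and the others have no direction here, among them the mRNA decay genes Zfp36, Zfp36l1 and Zfp36l2. Zfp592 and Zfp687, subunits of a complex with ZMYND8, were split, with 1459 against 774 reads for Zfp592, a log2 ratio of 0.48, and 550 against 790 for Zfp687, a ratio of -0.96 on fractional reads. Zfp281 and Zfp148, which bind GC-rich promoters, had log2 ratios of 0.43 and 0.38, the latter on fractional reads, that turned to -0.02 and -0.06 with median ratio scaling, so no direction is given for them. Zfp451, a SUMO ligase, had 709 against 258.5 reads, 2.02-fold higher. Zfp106, an RNA-binding protein needed by motor neurons, had 932 against 1146, a log2 ratio of -0.74, the smallest decrease among the members.

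The cell fate list had members on both sides. Besides Zfp521, Zfp516, a regulator of brown fat genes, had 210 reads in the pleural cavity and 497.5 in bone marrow, and Zfp608 had 49 and 189.5. They were 3.21-fold and 5.24-fold lower, and neither had fractional reads. On the same list Zfp704 and Zfp395 were higher, so 3 of 5 listed genes were lower, a share near that of all listed genes, of which 3339 of 5807 were lower. The SCAN group held 5 genes by its protein pattern, which did not match Zscan4c, so that gene is counted with neither pattern. The KRAB pattern did not match Zkscan14. Classes here are those of the patterns, which may miss domains in other members. Zkscan14 had 889 against 389 reads and Zscan21 711 against 311, the same log2 ratio of 0.75, and with Zscan20 they made 3 higher. Zfp202, whose human counterpart represses lipid metabolism genes, had 338 against 1280 reads on fractional counts, and Zfp449 had 0 against 22.5, the remaining 2.

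Members with a KRAB box were higher in 32 of 52 cases, with a median log2 ratio of 0.68, and members with neither pattern in 18 of 39, with a median of -0.94. Much of this contrast lay in the members with few reads. With at least 100 summed reads, 30 of 42 KRAB members were higher with a median of 0.69, and 18 of 29 members with neither pattern with a median of 0.48. Of all listed genes 42.5% were higher, with a median of -1.02, and with at least 100 summed reads 52.6%, with a median of 0.32. Members with neither pattern, at 46.2% and 62.1%, lay nearer these shares than KRAB members, at 61.5% and 71.4%. Whether the classes differ was not tested.

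Members with more fingers were more often higher, a relation that was not tested. With 0 to 4 matched fingers 8 of 20 were higher, with 5 to 9 fingers 12 of 24, with 10 to 14 fingers 20 of 33, and with 15 or more 13 of 19. Median log2 ratios were -1.18, -0.32, 0.65 and 0.76 in that order. Over all listed genes 42.5% were higher and the median was -1.02. Members with at most 3 mean reads in the pleural cavity, all of them lower, numbered 5, 5, 2 and 1 in these groups. Median reads did not follow these numbers. In the same order they were 293, 423, 157 and 153 in bone marrow and 405, 482, 247 and 353.5 in the pleural cavity. The part of read level in these shares and medians was not tested. Finger number and class go together, since KRAB members held a median of 12 fingers and members with neither pattern 5, and the 96 members with a gene model held 966 fingers in all. There were exceptions at both ends. Zfp236 and Zfp729b, with the most fingers at 30 each, were higher by 0.76 and 0.65, while Zfp521 with 27 fingers had a log2 ratio of -3.81. Zfp395 and Zfp704, with 1 finger each, were higher, and Zfp804b, Zfp428 and Zfp608, also with 1, were lower.

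**Figure D4:**
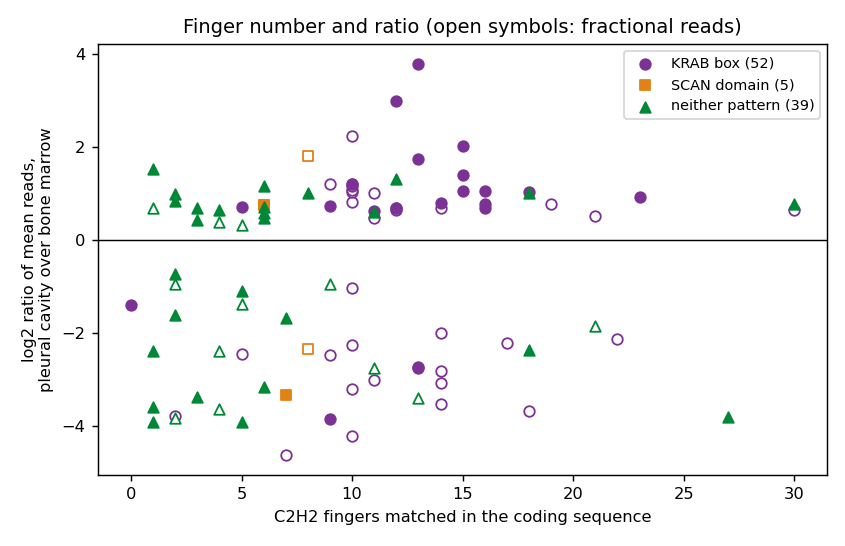
Log2 ratio of mean reads, pleural cavity over bone marrow (y axis), against the number of C2H2 fingers matched in the coding sequence (x axis) for the 96 members with a gene model. Circles are 52 members with a KRAB box, squares 5 with a SCAN domain and triangles 39 with neither, and open symbols have fractional reads. Above 14 fingers 13 of 19 points lie above 0, and up to 4 fingers 8 of 20.

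Members with fractional reads were less often higher than the others. Fractional means were found in 47 of the 97 members, 48.5%, and in 25.8% of all listed genes. Of the 47, 20 were higher with a median log2 ratio of -1.39, whereas 34 of the 50 members without fractional reads were higher with a median of 0.69. By sequence, 37 members had at least 1 window of 100 bases, the read length, that also occurs in another gene, and 15 of these were higher, against 38 of 59 members with no such window. Of all listed genes 42.5% were higher. Directions were not counted for the fractional genes of the whole list, so whether this contrast is particular to the members is unknown. The part of read sharing in the directions was not tested.

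Members that lie side by side in the genome were compared next. Chains of members with starts at most 500 kb apart formed 14 clusters with 41 members, of which 6 clusters held only higher members, 2 only lower ones and 6 both. On chromosome 17, from 21383748 to 21664966, all 5 listed members were higher by similar amounts, and this was the most even cluster of 3 or more. Mean reads in the pleural cavity and bone marrow were 353.5 and 153 for Zfp677, 757 and 325.5 for Zfp51, and 1144 and 406 for Zfp53. They were 704 and 301.5 for Zfp52 and 509 and 214.5 for Zfp983. The log2 ratios ran from 0.77 for Zfp677 to 1.06 for Zfp53, and only Zfp51 and Zfp983 had fractional reads. All 8 listed members of chromosome 17 were higher, the other 3 being Zfp758, Zfp870 and Zfp955a.

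The opposite was seen on chromosome 7 from 42473386 to 43192109, where all 4 listed members were lower and all had fractional reads. Zfp141 had 674 mean reads in the pleural cavity and 1018 in bone marrow, and Zfp975 had 57.8 and 361. Zfp976 had 63.0 reads in bone marrow and under 7 in the pleural cavity, and Zfp936 had 0.515 in the pleural cavity. The log2 ratios were -1.03 for Zfp141, -3.08 for Zfp975, -3.69 for Zfp976 and, as a bound, -3.03 for Zfp936. Zfp975 and Zfp976, 89.7% identical over 524 aligned residues, share windows with each other, so the division of reads between them is uncertain.

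Other clusters were split between close relatives. On chromosome 7 from 24112314 to 24515682 Zfp112 and Zfp235 were higher, as above, and their neighbours Zfp114, Zfp111 and Zfp428 lower. Zfp114 had 26.0 reads in the pleural cavity and 92.0 in bone marrow and Zfp111 had 53.0 and 157, so Zfp114 had a log2 ratio of -2.26 and both were on fractional reads. Zfp235 is 75.9% identical to Zfp114 and 73.9% to Zfp111 over the aligned residues. In mean reads the sides thus changed among the KRAB genes Zfp112, Zfp235, Zfp114 and Zfp111, while Zfp428 had neither pattern. Of the windows of Zfp114 25.3%, but 0.58% of those of Zfp235, were shared with another gene. The levels of Zfp114 and Zfp111 are therefore uncertain, and Zfp112 rested on 32 reads against 0.

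A split of the same kind was found on chromosome 4 from 147492417 to 147809788, a cluster of KRAB genes with many recent copies. Zfp984 had 1450 mean reads in the pleural cavity and 775 in bone marrow, a log2 ratio of 0.47, while Zfp982 and Zfp985 had under 5 in the pleural cavity. Zfp984 and Zfp985 were 84.0% identical over 519 residues and their first fingers are those printed above. All 3 had fractional reads, and 31.2% of the windows of Zfp984 were shared with other genes. The levels of single members of this cluster are therefore uncertain.

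On chromosome 13 from 67362113 to 67729173 Zfp456, Zfp874b, Zfp748 and Zfp729b were higher, with log2 ratios of 1.02, 1.19, 0.91 and 0.65, and Zfp65 at the end of the row was lower. Zfp65 had 187 reads in the pleural cavity and 774 in bone marrow, 5.62-fold lower on fractional reads. On chromosome 2 from 150114406 to 150451486 Zfp120 was higher, while Zfp937, with 134 against 708 reads, and Zfp442, with 29.4 against 101, were lower. Zfp937 and Zfp442 were 85.3% identical over 503 aligned residues, and both had fractional reads.

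**Figure D5:**
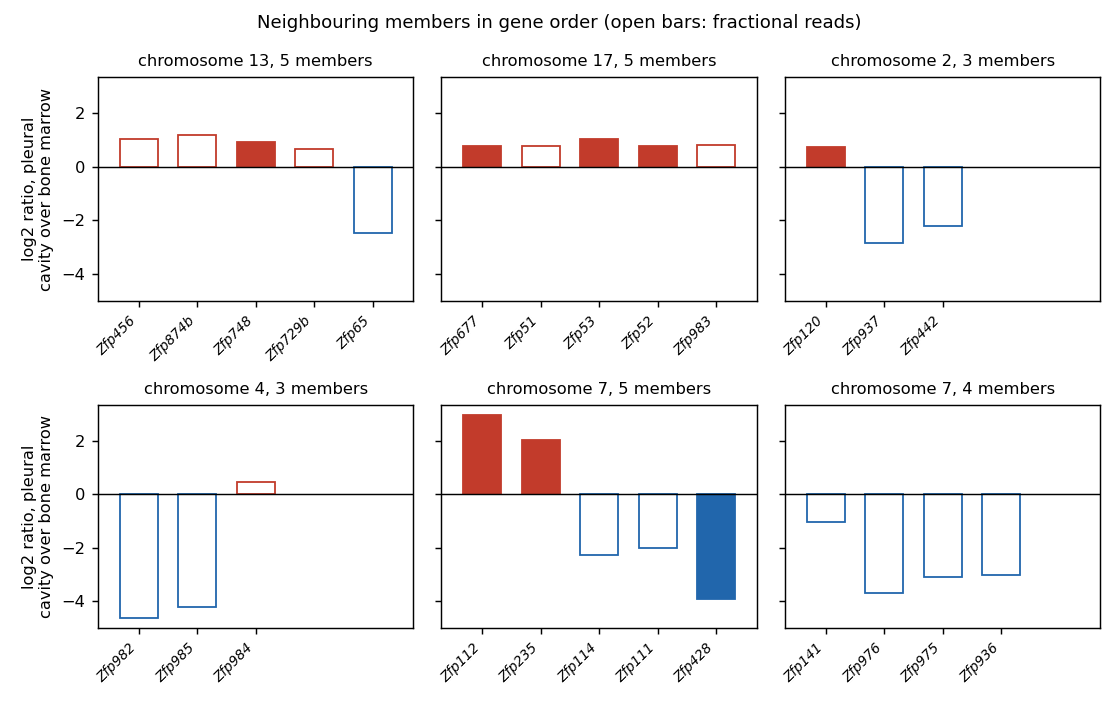
Log2 ratio of mean reads, pleural cavity over bone marrow (y axis), of neighbouring members in gene order (x axis, each bar 1 member) for the 6 clusters with at least 3 listed members. Open bars have fractional reads. All 5 bars of the chromosome 17 cluster are above 0, all 4 of a chromosome 7 cluster are below 0, and the other 4 clusters hold both directions.

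By chromosome the counts were small. The 3 listed members on X, Zfp300 with 87.2 against 431 reads, Zfp449 with 0 against 22.5 and Zfp711 with 0.5 against 20, were all lower. Lower members were 4 of 5 on chromosome 11, 3 of 4 on chromosome 18 and 5 of 8 on each of chromosomes 2 and 4. On chromosome 7, which holds the most members, 9 of 21 were lower. These counts stand beside 43 of 97 members and 3339 of 5807 listed genes. On chromosome 11, Zfp2, Zfp354a and Zfp616 had only 35, 15 and 11.5 reads summed over both tissues. Nearly all listed genes with so few reads were lower. Away from the clusters, Zfp697 on chromosome 3 had 328 reads in the pleural cavity and 1636 in bone marrow, 6.76-fold lower, and was, after Zfp369 and Zfp488, the member with the most marrow reads. Zfp697 had fractional reads, although none of the windows of the transcript used for it was found in another gene.

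The machinery that KRAB members recruit was followed through 31 gene symbols that are not members. Of these, 13 were listed, with 4 higher and 9 lower and a median log2 ratio of -0.73. Over all listed genes the median was -1.02 and 42.5% were higher. All 13 had more than 100 summed reads. Over the 4604 listed genes with at least 100 the median was 0.32 and 52.6% were higher. Trim28 had 797.5 mean reads in the pleural cavity and 1126.5 in bone marrow, a log2 ratio of -0.94. Among its partners, the heterochromatin protein gene Cbx5, on fractional reads, had a ratio of -2.89 and Cbx3 one of -0.88. Uhrf1 and Dnmt1, which maintain DNA methylation through replication, were lowest among the non-fractional genes at -5.46 and -2.17. On the other side the de novo methyltransferase gene Dnmt3a had 0.58 and Smarcad1 0.61, both on fractional reads, while Atf7ip at 0.24 and Morc3 at 0.27 turned negative with median ratio scaling. The histone methyltransferase gene Setdb1 was not listed.

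Markers of other cells moved with the tissues. All 11 neutrophil and granulocyte precursor markers were lower in the pleural cavity and made up 10.4% of bone marrow reads of the listed genes against 0.0165%, with Mpo at 196096.5 against 374 reads. All 4 basophil and mast cell markers and all 5 proliferation markers were lower too, the latter with log2 ratios from -3.57 to -6.42. Of 4 erythroid markers 2 were listed, both lower. Of 6 B, T and NK cell markers 2 were listed, in opposite directions. Nkg7 had 112 reads in the pleural cavity and 10432 in bone marrow, and Ms4a1 had 366 and 107. Of the macrophage markers 4 of 5 were listed and 3 were higher, among them Csf1r with 20627.5 against 3973.5 reads. Eosinophil markers were listed in 6 of 7 cases, with Siglecf, Ccr3 and Il1rl1 higher. The granule genes Epx and Prg2 were 552-fold and 508-fold lower, and the lipoxygenase gene Alox15 was lower too. Both tissues thus held eosinophil transcripts. The part of these cells or stages in the levels of the 97 members was not tested, and fewer cells of a type and less RNA per cell cannot be told apart in such libraries.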

How the data were processed

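Mouse eosinophils were sequenced as 2 libraries each from bone marrow and pleural lavage fluid, with paired reads of 100 bp. The labels name HISAT2 2.1.0, StringTie 1.0.4, Bowtie2 2.2.5, RSEM 1.2.8 and DESeq among the submitters' tools, and the methods give GRCm38 as the genome. The deposited table holds the authors' expected counts from RSEM, as the mean of the libraries per tissue without correction for depth. It also holds the authors' own comparison, a log2 fold change, a P value and a Q value per gene, which was not used. Depth per library is therefore unknown.

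Samples were grouped by their tissue label. Here each tissue's means were divided by the total of its listed genes, means of at most 3 reads were set to 3, and log2 ratios were taken. Alternatives covered scaling, floor, read filters, fractional reads and folds of 1.5 and 4. Named members were those on role lists, the 10 with most reads, the 8 highest and 8 lowest ratios among those with at least 30 summed reads, and the 5 with most reads among those at 0 in a tissue. Other members of clusters, on chromosomes or in pairs of relatives were named after their values were seen. Members and lists were chosen with earlier results of these data known. Gene models, positions and proteins came from GENCODE vM21, on the same assembly, and 96 of 97 members matched, all but Zfp33b. For each member a single transcript was used, that with the longest reading frame among those starting with ATG. Lengths, fingers and shared windows are those of this transcript, and windows of the member's other transcripts were not searched. Fingers were counted by the pattern C, 2 to 4 residues, C, 3 residues, a hydrophobic residue or C, 8 residues, H, 3 to 5 residues, H, and KRAB and SCAN by patterns of conserved residues, in place of RefSeq proteins, which were not used here. Identity came from global alignment with BLOSUM62. The code was tested on simulated data. Python 3.11.15, pandas 2.3.3, numpy 2.4.6, Biopython 1.88 and matplotlib 3.10.9 were used.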

Additional observations from a re-analysis of the deposited data

How the results depend on the processing

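No paired analysis was possible because the mean columns carry no replicate, and leaving out a replicate could not be run for the same reason. The members' median log2 ratio of 0.51 stayed positive and came to 0.95 without scaling, 0.063 with median ratio scaling, 0.93 with trimmed mean scaling, 0.63 and 0.68 with at least 30 and 100 summed reads, and 0.69 without fractional members. Relative to the main scaling, all log2 ratios shift by 0.44, -0.44 and 0.43 under no scaling, the median ratio and the trimmed mean. Of 97 members, the 21 at least 2-fold higher became 48 without scaling, 7 with the median ratio, 48 with the trimmed mean, 47 at a fold of 1.5 and 4 at a fold of 4. With at least 100 summed reads 24 members were lower and 21 at least 2-fold lower. Without fractional members 34 were higher, 16 lower and 15 at least 2-fold lower, since 50 members remained. Only the median ratio turned directions, to -0.12 for Zfp276, -0.063 for Zfp148 and -0.016 for Zfp281. The log2 ratio of the family's summed level, -0.25, became 0.17 without Zfp488 and Zfp369, an alternative chosen after seeing the data. The other 29 summary values kept their direction, and counts kept within 1.5 times. With no depth or spread per library, ratios on few reads are the least certain.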

Other observations

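Other zinc finger families in the same list are given as values with no test. Of 10 listed Klf genes 8 were higher in pleural cavity eosinophils, with a median log2 ratio of 1.20, and of 6 listed Zbtb genes 4 were higher, with a median of 0.73. The Zmym family had 4 of 5 higher with a median of 0.52, and the Zc3h family 3 of 4 with a median of 0.56. Of 3 listed Zfhx genes 2 were higher, with a median of 0.74 and the lowest at -5.30. These medians stand beside 0.51 over the 97 Zfp, Zscan and Zkscan members and -1.02 over all 5807 listed genes, of which 42.5% were higher. With at least 100 summed reads the median was 0.68 over the members and 0.32 over the listed genes, of which 52.6% were higher.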
